A study of Homo sapiens with 24 samples.

Results

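The ferlins, the annexins and the S100 proteins that bind annexins take part in the calcium-triggered closing of a torn plasma membrane. The messages of 10 such genes, DYSF, MYOF, ANXA1, ANXA2, ANXA3, ANXA5, ANXA6, ANXA8, S100A10 and S100A11, were taken by name from RNA-Seq tables of SK-MES-1 cells. All 10 passed the filter on low counts and are 10 of the 17453 genes tested. SK-MES-1 is an established line of squamous cell carcinoma of the lung. The cells were deprived of serum for 3 h and then received 2 ng/ml TGFβ1 or nothing, and RNA was taken at 0, 8, 24 and 48 h from 3 biological replicates per arm and time. The 24 libraries thus fall into 8 groups, 4 untreated and 4 of the TGFβ arm, and every group had the same 3 h of serum deprivation beforehand. The study's methods name growth factor-depleted medium for the stimulation too, which would make the time without serum longer in later groups. The estimated read counts per library ranged from 46613589 to 77964234, with a median of 54120879.

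Ferlins are large anchored membrane proteins with a row of C2 domains, which bind phospholipids when calcium enters a wounded cell, and they help vesicles to fuse at the wound. Annexins are cytosolic proteins that settle on the inner membrane face as calcium rises and there hold membranes together, bend them or form lattices, while S100A10 and S100A11 join annexin molecules into larger complexes. In skeletal muscle the loss of dysferlin, the product of DYSF, causes muscular dystrophy; in epithelial tumour cells the same proteins have been studied in migration, in secretion and in the survival of membrane damage.

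The response to TGFβ and the identity of the cells were looked at first. All 6 genes of a list of known TGFβ targets rose in treated cells, with mean log2 differences over 8, 24 and 48 h from 1.99 for LTBP2 to 4.11 for PMEPA1. Of 8 markers of squamous or basal epithelium, KRT5, KRT6A, KRT14 and DSG3 lay near 0 and were not tested; the summed level of the 8 was 44.2 to 134 TPM (the deposited relative level of a message, corrected for transcript length and for depth) over the libraries, and of the 4 tested KRT17 and PKP1 passed with a higher level under TGFβ and SOX2 with a lower one. TP63 passed with differences of both signs, 0.81 at 8 h and 1.02 at 24 h but -0.49 at 48 h. The 5 markers of simple epithelium, with keratins 8 and 18 in front, summed to 1147 to 2243 TPM. Of these 3 passed the test over the 3 times, which 42.5% of all genes did. EPCAM was lower at each time, while KRT18 and CDH1 had means near 0 and differences of 0.17 and 0.32 at 8 h against -0.19 and -0.35 at 48 h. Thus 3 of the 5 were lower at 48 h and none higher, beside 2870 lower and 2816 higher of all 17453 genes tested. White blood cell markers summed to 1.39 to 2.40 TPM, endothelial markers to 0.662 to 4.54 TPM, and the 6 markers of striated muscle, the tissue best known for DYSF, to 0.013 to 0.555 TPM; CD3E was at or near 0 in the first of these lists, CDH5 in the second and ACTA1 and CKM in the third. By the mean over the 3 times, both tested white blood cell genes passed as lower and both tested endothelial genes as higher, at these low levels. PECAM1, 1 of the 2 endothelial genes, had log2 differences of -0.36 at 8 h and 0.68 at 48 h. The part of any such cells in the results below was not tested. In bulk RNA, fewer cells with a message and less message per cell cannot be told apart.

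Each deposited table carries a number code in its name, whose meaning is not given in the sources used here. The untreated libraries of 0 and 8 h share one code, those of 24 and 48 h another, and the TGFβ arm has 2 further codes split in the same way. Arm and code therefore coincide, and at a single time they cannot be told apart. The 0 h libraries carry the codes of the 8 h libraries, so for these codes they show what arm and code do without time in TGFβ. No 0 h library carries a code of 24 and 48 h, so the differences at those times lack this comparison. At 0 h none of the 10 genes differed between the arms in limma voom at an adjusted p of 0.01, as for 0.0% of all genes tested, and edgeR also called none, while DESeq2 called 8 of all genes. At an unadjusted p of 0.05, 800 of all genes and 0 of the 10 passed, and the differences of the 10 at 0 h lay between -0.04 for MYOF and 0.07 for ANXA5 on the log2 scale.

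Under TGFβ the 2 ferlins moved apart. DYSF rose and MYOF fell. Among the annexins ANXA8 was 4.25-fold higher than in untreated cells at 48 h, beside 7.93-fold for DYSF. Against its own 0 h level ANXA8 was 1.65-fold higher at 48 h in treated cells and 2.57-fold lower in untreated cells, so both arms enter this difference. ANXA5 and ANXA6 were higher than in untreated cells by less than 2-fold, and ANXA1 was lower. ANXA2 and ANXA3 stayed close to the untreated level with differences that changed sign between times. Both S100 partners were higher than in untreated cells. From 0 h to 48 h within treated cells S100A10 and S100A11 changed by log2 -0.26 and -0.17, with the other sign when 4 reference genes set the scale. By the test over 8, 24 and 48 h together (limma voom F-test with Benjamini-Hochberg adjustment), all 10 genes passed an adjusted p of 0.01, which 42.5% of all genes tested did. At 8 h 7 of the 10 passed, 5 higher and 2 lower, against 16.4% of all genes. At 24 h all 10 passed, 7 higher and 3 lower, against 29.3%. At 48 h 8 passed, 6 higher and 2 lower, against 32.6%. The median size of the log2 difference, sign left aside, was 0.35, 0.47 and 0.57 at these 3 times for the 10 genes, beside 0.15, 0.22 and 0.23 for all genes tested. With 4 reference genes as the scale, all log2 differences moved up by about the same amount at 24 h and at 48 h, so that MYOF was at -0.27 and -0.35, ANXA1 at -0.63 and -0.65, ANXA5 at 0.74 and 0.93, ANXA6 at 0.72 and 0.70, S100A10 at 0.80 and 0.92 and S100A11 at 0.84 and 0.74, each still past the threshold. The counts behind these genes span a wide range, from 205 estimated counts for ANXA8 in its lowest library to 238579 for ANXA2 in its highest.

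**Figure D1:**
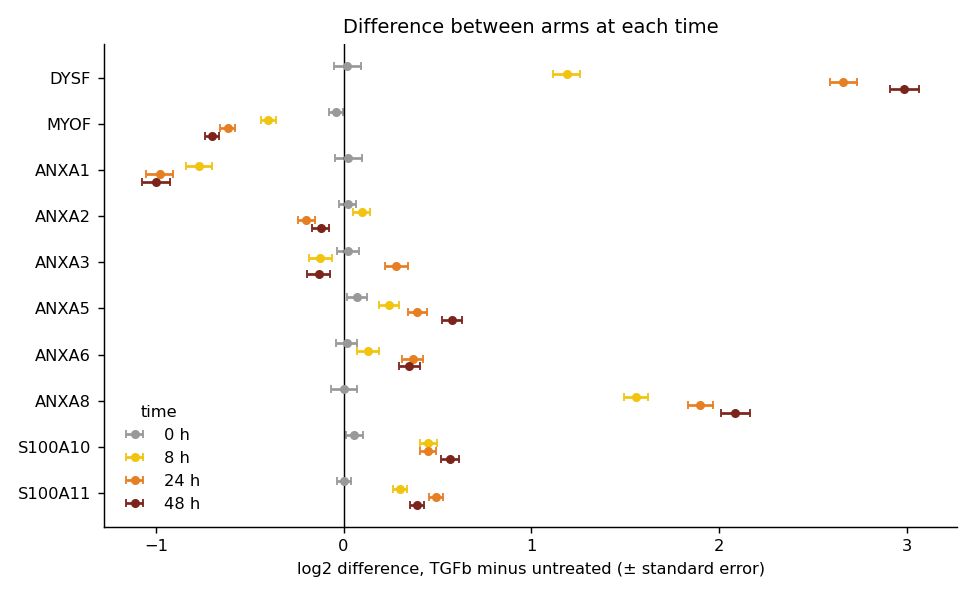
Log2 difference between the TGFβ arm and the untreated arm for each gene (rows) at 0, 8, 24 and 48 h (colours), with the standard error from limma voom as bars, 3 libraries per arm and time. All 10 genes lie near 0 at 0 h; DYSF reaches 2.99 and ANXA8 2.09 at 48 h, while ANXA1 reaches -0.998 and MYOF -0.70.

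DYSF encodes dysferlin, the ferlin that brings vesicles to the wounded membrane. The gene lies on the plus strand at chr2:71453561-71686763 (GRCh38, GENCODE 44). Before treatment it was a rare message here: the 3 untreated libraries at 0 h held 9.46, 9.27 and 9.44 TPM, and the 3 libraries of the TGFβ arm 9.77, 9.54 and 9.95 TPM. The 2 sets did not overlap even then, but the gap was small. In untreated cells DYSF went to 8.32, 7.92 and 7.94 TPM at 8 h, to 5.40, 4.29 and 4.96 TPM at 24 h and to 4.36, 3.74 and 4.39 TPM at 48 h. In TGFβ-treated cells it went the other way, to 18.3, 17.6 and 17.0 TPM at 8 h, to 32.7, 30.3 and 33.1 TPM at 24 h and to 34.3, 31.8 and 34.8 TPM at 48 h. From 8 h on every treated library lay above every untreated library of its time. The difference between the arms was 2.28-fold at 8 h, 6.34-fold at 24 h and 7.93-fold at 48 h, or 1.19 ± 0.07, 2.66 ± 0.07 and 2.99 ± 0.08 on the log2 scale (± standard error, n = 3 against 3; adjusted p 3.8e-11, 4.4e-17 and 7.4e-18 in limma voom). Against its own 0 h level, DYSF in treated cells was 3.21-fold higher at 48 h (adjusted p = 9.9e-15, limma voom), and in untreated cells it was 2.43-fold lower (adjusted p = 1e-11), so both arms enter the 48 h difference. Ordered by the mean difference over 8, 24 and 48 h, DYSF stood at place 137 from the top of 17453 genes. DYSF is one of the candidate genes that the study chose on these same samples, so its rise is not independent evidence.

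**Figure D2:**
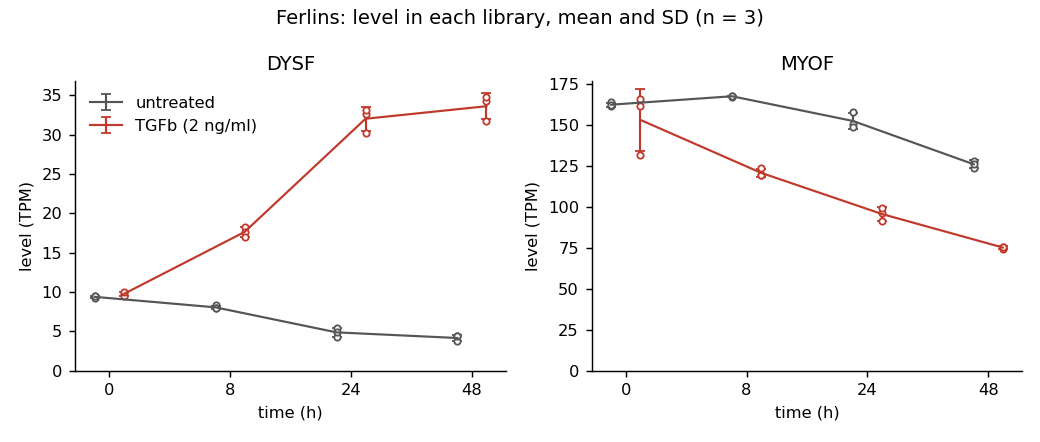
Level of DYSF (left) and MYOF (right) in TPM at each time, with 1 point per library and the mean and SD of 3 libraries; grey is untreated and red is the TGFβ arm, and the times are evenly spaced on the axis. Treated DYSF reaches 31.8 to 34.8 TPM at 48 h against 3.74 to 4.39 untreated, while MYOF reaches 74.4 to 75.8 against 124 to 128 TPM.

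The annotation gives DYSF several starts, and its transcripts in the tables were grouped by start after their values had been seen. The grouping set 5 transcripts at an upstream first exon at position 71453561, 6 at a downstream first exon, and the shorter transcript DYSF-216 at an internal start at position 71576899, which left 7 other short transcripts with at most 1.28 TPM in any library. The downstream group carried most of the message, between 57.9% and 69.3% of DYSF TPM as the mean of a group of libraries, the upstream group 9.50% to 29.7% and DYSF-216 12.4% to 23.1%. All 3 groups were higher in every treated library than in every untreated one at 48 h: the downstream group had 23.9, 22.6 and 22.6 TPM against 2.94, 2.45 and 3.08, the upstream group 2.75, 3.64 and 3.999 TPM against 0.862, 0.618 and 0.398, and DYSF-216 6.95, 5.16 and 6.93 TPM against 0.559, 0.673 and 0.747. The split between transcripts that share most exons is kallisto's estimate, and the SD of a share reached 11.2 percentage points in untreated cells at 24 h.

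**Figure D3:**
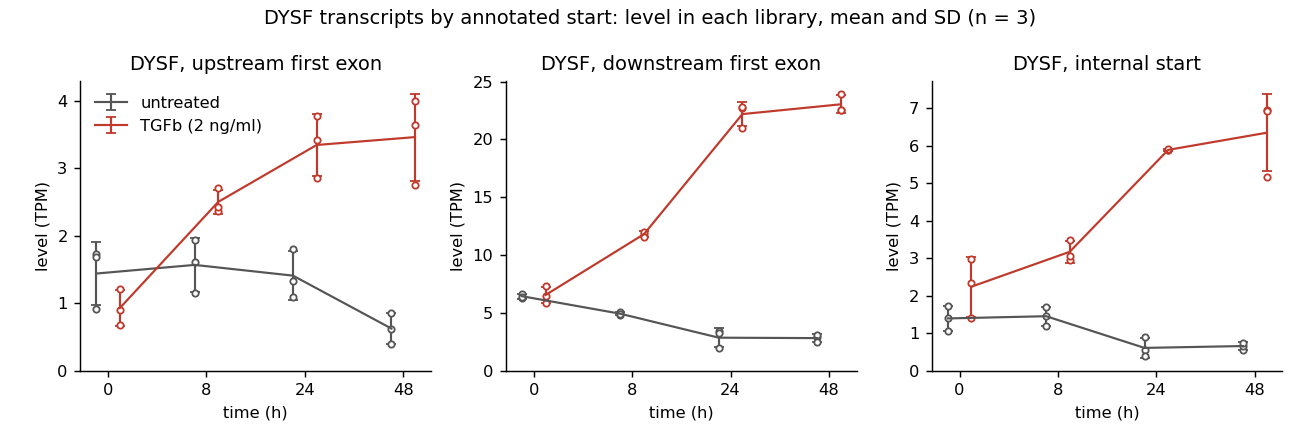
DYSF transcripts grouped by annotated start (upstream first exon, downstream first exon, internal start), in TPM by time, with 1 point per library and the mean and SD of 3 libraries; each panel has its own axis from 0. At 48 h the downstream group has 22.6 to 23.9 TPM in treated and 2.45 to 3.08 TPM in untreated libraries, the largest part of the rise.

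The sequences before the upstream start of DYSF, the start of MYOF and those of the 2 S100 partners are shown because the messages they lead to moved in opposite directions (DYSF and MYOF) or together (the S100 genes). Each line is 250 bases, 5′ to 3′ on the strand of the gene, read from GRCh38, and ends at the base before the start; capitals mark CAGAC, the short SMAD-binding letters, or its reverse complement GTCTG. The DYSF upstream window (chr2:71453311-71453560, plus strand) and those of MYOF (chr10:93482335-93482584, minus strand), S100A10 (chr1:151993860-151994109, minus strand) and S100A11 (chr1:152037005-152037254, minus strand) are from RefSeq.
DYSF upstream first exon: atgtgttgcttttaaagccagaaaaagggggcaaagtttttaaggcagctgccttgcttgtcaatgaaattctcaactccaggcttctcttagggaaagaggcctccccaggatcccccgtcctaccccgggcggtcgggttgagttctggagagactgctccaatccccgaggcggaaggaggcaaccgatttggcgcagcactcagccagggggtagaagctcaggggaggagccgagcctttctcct
MYOF: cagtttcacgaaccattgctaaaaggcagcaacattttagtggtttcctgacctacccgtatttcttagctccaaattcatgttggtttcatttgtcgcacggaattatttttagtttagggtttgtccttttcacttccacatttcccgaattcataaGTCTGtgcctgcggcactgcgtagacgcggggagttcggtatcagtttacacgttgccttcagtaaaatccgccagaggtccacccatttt
S100A10: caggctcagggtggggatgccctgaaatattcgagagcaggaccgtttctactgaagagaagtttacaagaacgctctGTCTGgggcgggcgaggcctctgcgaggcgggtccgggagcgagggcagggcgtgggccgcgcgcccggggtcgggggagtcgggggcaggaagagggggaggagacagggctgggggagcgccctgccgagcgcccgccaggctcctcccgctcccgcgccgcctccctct
S100A11: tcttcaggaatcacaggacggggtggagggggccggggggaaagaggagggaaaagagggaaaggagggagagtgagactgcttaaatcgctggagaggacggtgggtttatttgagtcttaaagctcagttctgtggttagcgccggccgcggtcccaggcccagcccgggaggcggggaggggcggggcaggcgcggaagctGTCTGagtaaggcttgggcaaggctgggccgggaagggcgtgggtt
Searched on both strands, CAGAC was present once in each of the MYOF, S100A10 and S100A11 windows and not in the upstream DYSF window. That DYSF window precedes only the upstream group of transcripts, 9.50% to 29.7% of DYSF TPM as group means. These letters are common: 38.0% of 35116 RefSeq promoter windows of the same length hold them, and they were in 4 of the 10 RefSeq windows of 9 of the genes, those of MYOF, S100A10 and S100A11 and the second window of ANXA6 (ANXA8 was not in the table). The AP-1 letters TGANTCA were in 1 of these 10 windows, that of ANXA2, and in 6.57% of all, and the TEAD letters GGAATG were in 0 of the 10 and in 11.9% of all. No window held 2 of the 3 motifs, and a match is a run of letters, not a shown binding site. All 250 bases of the upstream DYSF window lie within annotated exons, whose gene and strand were not looked up.

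MYOF encodes myoferlin, the close relative of dysferlin that is abundant in many tumour cells and takes part in membrane fusion and receptor recycling. The gene lies on the minus strand at chr10:93306429-93482334. It was the main ferlin message of these cells, with 161, 164 and 162 TPM in untreated libraries at 0 h and 132, 166 and 162 TPM in the TGFβ arm. The first of those treated-arm libraries stood below the other two. Untreated cells kept 167 to 168 TPM at 8 h and had 149 to 158 TPM at 24 h and 128, 124 and 126 TPM at 48 h. Treated cells had 119, 120 and 124 TPM at 8 h, 96.2, 99.7 and 91.4 TPM at 24 h and 74.4, 75.6 and 75.8 TPM at 48 h, always below the untreated libraries. MYOF was 1.32-fold lower at 8 h, 1.53-fold lower at 24 h and 1.62-fold lower at 48 h (log2 differences -0.40 ± 0.04, -0.62 ± 0.04 and -0.70 ± 0.04, ± standard error; adjusted p 4.2e-08, 2.6e-11 and 3.7e-12, limma voom). The full-length transcript MYOF-202 held 66.6% to 68.7% of MYOF TPM in every group, so the share of this main transcript hardly moved. Minor shares did move: a transcript of 6680 bases went from 1.68% at 0 h to 3.41% at 48 h in untreated cells. In the TGFβ arm its share went from 2.09% to 5.33% (SD 2.51 percentage points at 48 h).

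The ratio of the 2 ferlin messages shows both changes at once and does not depend on how libraries are scaled. In untreated cells there were 17.3 ± 0.326 MYOF transcripts per DYSF transcript at 0 h and 30.4 ± 2.31 at 48 h (SD, n = 3). In treated cells the mean number went from 15.7 ± 2.02 at 0 h to 6.86 ± 0.373 at 8 h, 3.00 ± 0.273 after 24 h and 2.24 ± 0.12 after 48 h. MYOF thus stayed the more abundant of the pair in all 24 libraries. The log2 ratio of DYSF to MYOF was on average 2.92 higher with TGFβ over 8, 24 and 48 h. An exact permutation test of the 8000 relabellings within time gave a two-sided p of 0.00025. That is the smallest p the test can give, and it was the same after adjustment over the 3 ratios tested. It was fixed by the gene levels, since treated DYSF lay above and treated MYOF below all untreated libraries of each time. This p therefore adds nothing to the results of the 2 genes. At 0 h the log2 ratio differed by 0.15 between the arms.

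ANXA8, an annexin first known as an inhibitor of blood clotting, was as rare as DYSF at the start and had the largest mean difference over 8, 24 and 48 h among the 6 annexins of the set. The gene lies on the minus strand at chr10:47460162-47484158. Its level was 8.51, 10.1 and 9.15 TPM in untreated and 9.38, 8.65 and 9.17 TPM in TGFβ-arm libraries at 0 h. Treated cells had 21.3, 21.9 and 23.1 TPM at 8 h, 24.5, 25.4 and 24.5 TPM at 24 h and 17.0, 15.4 and 16.4 TPM at 48 h. Untreated cells had 7.29, 8.55 and 7.62 TPM at 8 h, 6.96, 6.81 and 6.41 TPM at 24 h and 3.98, 3.79 and 4.03 TPM at 48 h. ANXA8 in treated cells was thus highest at 24 h, while the difference from untreated cells was 2.95-fold at 8 h, 3.73-fold at 24 h and 4.25-fold at 48 h (log2 1.56 ± 0.06, 1.90 ± 0.07 and 2.09 ± 0.08; adjusted p 5e-14, 1.8e-15 and 4.2e-15, limma voom).

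ANXA8 has a near-identical copy on the plus strand of the same chromosome, ANXA8L1 at chr10:46375627-46391784, and reads from the pair are shared out by estimate. The canonical coding sequences of both are 981 bases long and differ at 5 of them, an identity of 99.5%. ANXA8L1 was listed with 42.3 to 479.1 estimated counts, and its mean log2 difference over 8, 24 and 48 h was 1.83 ± 0.08 (adjusted p = 1.1e-12, limma voom), next to 1.85 ± 0.04 for ANXA8. With the counts of both added, the mean difference was 1.84, so the rise belongs to the pair and its division between them is uncertain. Of the main protein coding transcripts of ANXA8, the canonical one of 1960 bases made up 35.5% of its TPM in untreated and 24.8% in treated cells at 48 h, and another of 1971 bases made up 25.0% and 49.7%. These too are estimated splits. Of the processed copies of ANXA2, ANXA2P2 was listed with 11.3 to 42.8 estimated counts, which is little beside ANXA2 itself.

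ANXA1, which dampens inflammation and binds to wounded membranes early, was the annexin that fell most. It lies on the plus strand at chr9:73151865-73170393. At 0 h it had 795, 918 and 834 TPM in untreated and 800, 958 and 789 TPM in TGFβ-arm libraries. In untreated cells it was at 1030, 1035 and 1051 TPM at 8 h and came back to 749, 744 and 783 TPM at 48 h. In treated cells it had 578, 577 and 597 TPM at 8 h, 450, 566 and 467 TPM at 24 h and 362, 369 and 394 TPM at 48 h. The sets did not overlap from 8 h on, and ANXA1 was 1.71-fold lower at 8 h, 1.97-fold at 24 h and 2.00-fold at 48 h (log2 -0.77 ± 0.07, -0.98 ± 0.07 and -0.998 ± 0.073; adjusted p 2.6e-08, 3.6e-10 and 3.2e-10, limma voom).

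ANXA5, the annexin that forms lattices on exposed phosphatidylserine, and ANXA6, a double-length annexin that builds the repair cap, rose by smaller amounts. ANXA5 (chr4:121667946-121696995, minus strand) went from 497 to 518 TPM in untreated and 563 to 582 TPM in treated libraries at 8 h to 458 to 478 against 663 to 709 TPM at 48 h. Its log2 differences at these times and at 24 h between them grew from 0.24 ± 0.05 through 0.39 ± 0.05 to 0.58 ± 0.05 (adjusted p 0.0013, 2.7e-06 and 9.3e-09, limma voom). The 8 h call was kept under 12 of 15 alternative settings. Among those that lost it were library totals as the scale (0.16, adjusted p = 0.034) and log2(TPM + 1) values (0.19, adjusted p = 0.047), both in limma. ANXA6 (chr5:151100706-151157815, minus strand) had 46.3 to 47.3 TPM in untreated and 48.8 to 49.6 TPM in treated libraries at 8 h and did not pass there (log2 0.13 ± 0.06, adjusted p = 0.11, limma voom). Under 12 of 15 alternative settings ANXA6 also failed to pass at 8 h, and under the others it passed. At 48 h it had 49.2 to 52.8 TPM untreated and 65.1 to 66.3 TPM treated and passed at 24 and 48 h, with 1.29-fold and 1.27-fold more than in untreated cells (adjusted p 2.1e-05 and 2.9e-05, limma voom).

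ANXA2, the most abundant message of the 10 in all 8 groups, and ANXA3 showed small differences of changing sign. ANXA2, which crosslinks membranes and actin (chr15:60347134-60402883, minus strand), had 3644 to 3652 TPM in untreated and 3682 to 3840 TPM in treated libraries at 8 h, 3828 to 4100 against 3123 to 3686 TPM at 24 h, and 2639 to 2750 against 2349 to 2566 TPM at 48 h. The log2 differences were 0.10 ± 0.04, -0.20 ± 0.05 and -0.12 ± 0.05, of which the one at 24 h passed (adjusted p = 0.0013, limma voom). That call was lost without replicate 1 of the treated 24 h libraries (-0.15, adjusted p = 0.013) and with the libraries of 24 h alone (-0.19, adjusted p = 0.035), and with 4 reference genes as the scale the difference at 24 h was 0.15, of the other sign. ANXA3, a further calcium-dependent phospholipid-binding annexin (chr4:78551747-78610451, plus strand), had 100 to 105 TPM against 87.8 to 93.7 TPM in treated libraries at 8 h, 99.4 to 107 against 115 to 134 TPM at 24 h and 97.4 to 98.3 against 84.5 to 94.0 TPM at 48 h. Its difference was -0.12 ± 0.06, 0.28 ± 0.06 and -0.13 ± 0.06 on the log2 scale, and again the 24 h value alone passed (adjusted p = 0.00086, limma voom) and was lost with library totals (0.19, adjusted p = 0.024), on log2(TPM + 1) and log2(TPM + 0.1) values (0.23 and 0.24, adjusted p = 0.011 for both) and with the libraries of 24 h alone (0.29, adjusted p = 0.011). The larger event for ANXA3 was common to both arms, since it fell from 156 to 182 TPM at 0 h in untreated cells and from 153 to 185 TPM in the TGFβ arm to the 8 h levels above.

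**Figure D4:**
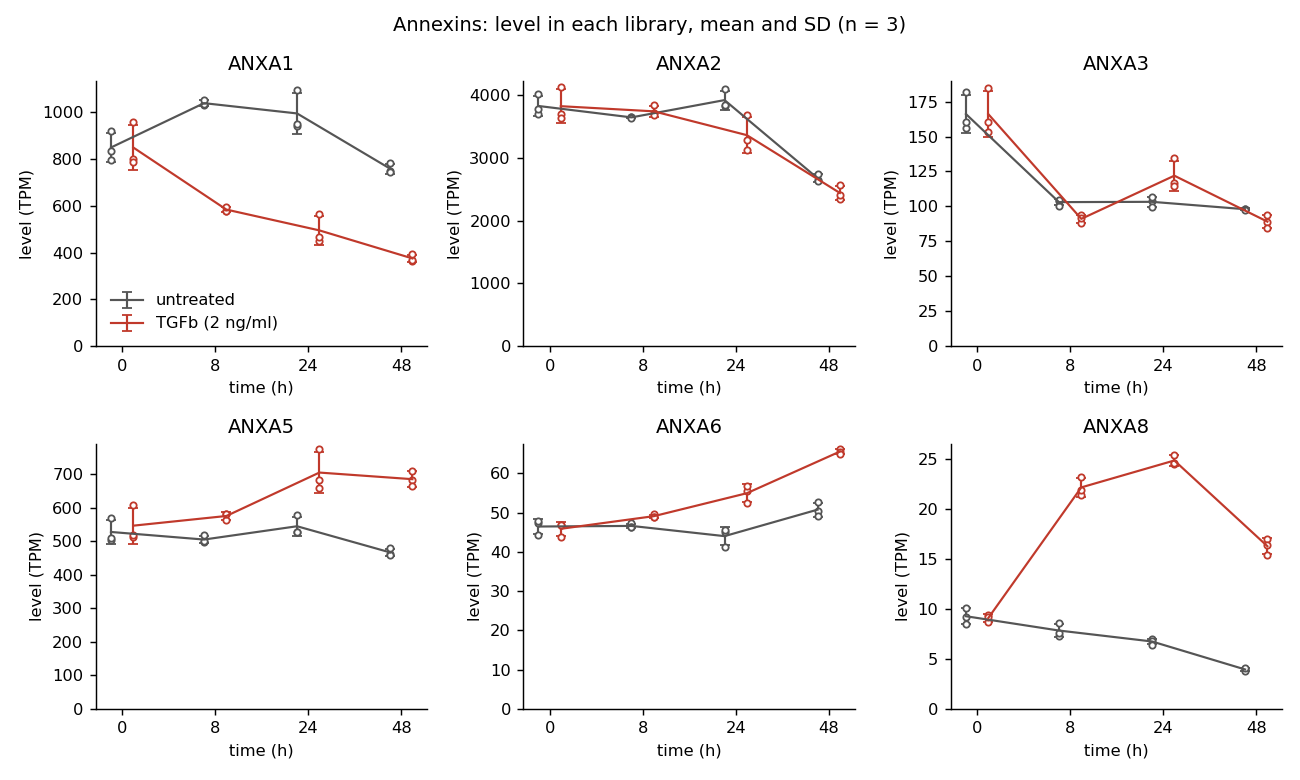
Level of the 6 annexins in TPM at each time, with 1 point per library and the mean and SD of 3 libraries (grey untreated, red TGFβ arm; every axis starts at 0, and the times are evenly spaced). ANXA8 is higher and ANXA1 lower in treated cells from 8 h on, the arms of ANXA5 and ANXA6 lie farther apart at 48 h than at 8 h, and the 2 arms run close together for ANXA2 and ANXA3.

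S100A10 and S100A11 were both higher in treated than in untreated cells from 8 h on. S100A10, which forms a tetramer with ANXA2 (chr1:151982915-151993859, minus strand), had 596, 610 and 629 TPM in untreated and 855, 812 and 845 TPM in treated libraries at 8 h, and 394, 389 and 410 against 610, 605 and 638 TPM at 48 h. Its log2 difference was 0.45 ± 0.04, 0.45 ± 0.05 and 0.57 ± 0.05 at 8, 24 and 48 h (adjusted p 7.7e-08, 5.2e-08 and 1.9e-09, limma voom). S100A11, which binds ANXA1 and ANXA2 (chr1:152032506-152047907, minus strand), had 1202, 1223 and 1209 TPM in untreated and 1448, 1436 and 1397 TPM in treated libraries at 8 h, and 943, 931 and 920 against 1195, 1179 and 1214 TPM at 48 h. It differed by 0.30 ± 0.04, 0.49 ± 0.04 and 0.39 ± 0.04 (adjusted p 1.8e-06, 5.9e-10 and 2.6e-08, limma voom). No treated library of either gene overlapped the untreated ones from 8 h on.

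Each S100 message was also set against that of its annexin. There were 0.168 ± 0.0068 S100A10 transcripts per ANXA2 transcript in untreated cells at 0 h and 0.148 ± 0.0010 at 48 h, and 0.183 ± 0.0045 and 0.253 ± 0.0060 in the TGFβ arm (SD, n = 3). The ratio already differed at 0 h, where all 3 libraries of the TGFβ arm lay above the untreated ones by a mean log2 difference of 0.13. Over 8, 24 and 48 h the mean log2 difference was 0.63. For S100A11 and ANXA1 the ratio was 1.53 ± 0.0993 and 1.49 ± 0.158 in the 2 arms at 0 h and 1.23 ± 0.0466 and 3.19 ± 0.110 at 48 h, with a mean log2 difference of 1.31 over 8, 24 and 48 h. Both later differences had a two-sided exact permutation p of 0.00025, the smallest possible, before and after adjustment over the 3 ratios. For S100A11 and ANXA1 this p was fixed by the gene levels and adds nothing to the results of the 2 genes. At each of these times treated S100A11 lay above and treated ANXA1 below all untreated libraries. For S100A10 and ANXA2 that was so at 24 and 48 h, while at 8 h treated ANXA2 lay above them too.

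**Figure D5:**
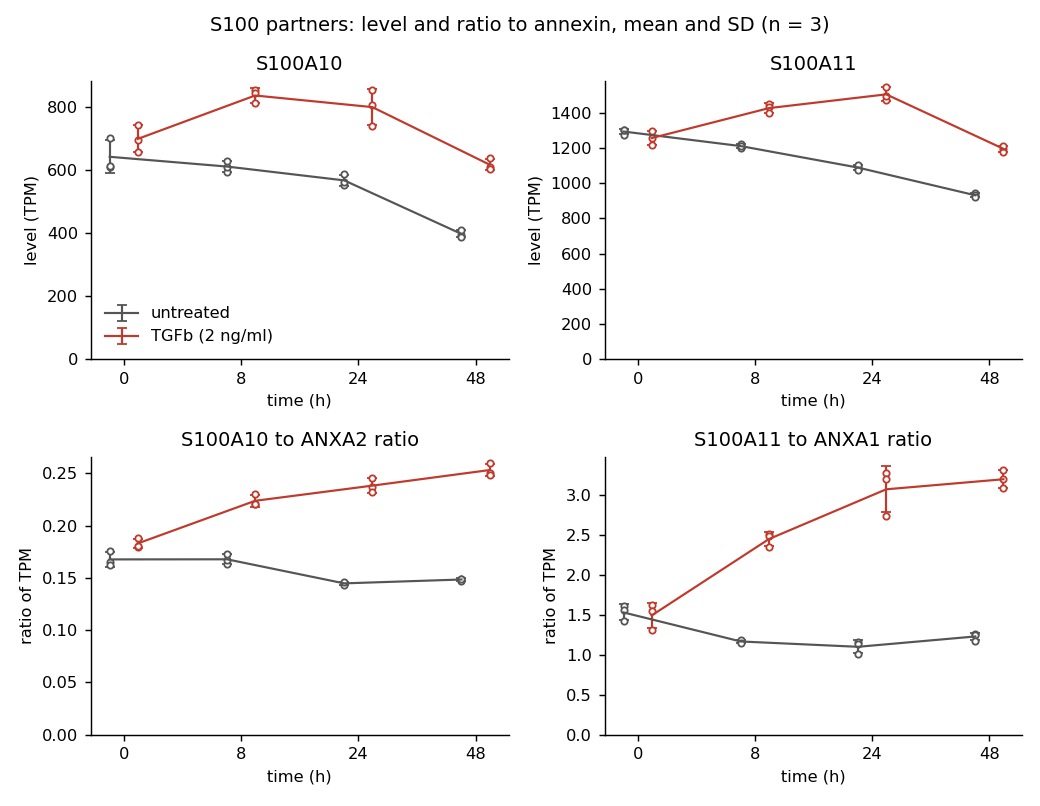
Upper panels: level of S100A10 and S100A11 in TPM; lower panels: ratio of S100A10 to ANXA2 and of S100A11 to ANXA1 in the same libraries, with 1 point per library and the mean and SD of 3 libraries (grey untreated, red TGFβ arm; axes start at 0). At 48 h the S100A11 to ANXA1 ratio is 3.19 with TGFβ and 1.23 without, and the S100A10 to ANXA2 ratio 0.253 and 0.148.

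In every group ANXA2 was first of the 10 in TPM and S100A11 second, although their neighbours changed. In untreated cells at 0 h the order went on with ANXA1 at 849 TPM, S100A10 at 643, ANXA5 at 527, ANXA3 at 166, MYOF at 163, ANXA6 at 46.5, DYSF at 9.39 and ANXA8 at 9.25 TPM. ANXA3 and MYOF overlapped there, as did DYSF and ANXA8, and all other neighbours were apart. In treated cells at 48 h ANXA5 at 685 TPM and S100A10 at 618 stood before ANXA1 at 375, and MYOF at 75.3 had come close to ANXA6 at 65.6 and DYSF at 33.6 TPM, with no overlap between neighbours. Treated and untreated TPM values were without overlap for all 10 genes at 8, 24 and 48 h, beside 47.4%, 40.3% and 55.1% of all genes tested.

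The timing was tested as a change of the difference between the arms. From 0 h to 8 h, within one pair of codes, 6 of the 10 genes changed (7.88% of all genes did): DYSF by 1.17, ANXA8 by 1.56, S100A10 by 0.39 and S100A11 by 0.30 upward, ANXA1 by -0.80 and MYOF by -0.36, all on the log2 scale. From 24 h to 48 h, within the other pair, 1 of 10 changed against 9.11% of all genes, which was ANXA3 with -0.41 (adjusted p = 0.0024, limma voom). From 8 h to 48 h, where the codes differ, 4 of 10 changed against 14% of all genes: the DYSF difference grew by 1.80, that of ANXA8 by 0.53, that of ANXA5 by 0.34 (adjusted p 6.7e-11, 0.00053 and 0.002, limma voom) and that of MYOF changed by -0.30 (adjusted p = 0.00032). ANXA1, S100A10 and S100A11, which had changed by 8 h, did not pass from 8 h to 48 h, with values of -0.23, 0.11 and 0.09, and neither did ANXA6 with 0.22. Several of these calls turned on a setting. With the 4 reference genes as the scale the MYOF calls were lost, at -0.26 (adjusted p = 0.061) to 8 h and -0.04 (adjusted p = 0.74) from 8 h to 48 h, and so was that of ANXA3 (adjusted p = 0.023). On the same scale S100A10, S100A11 and ANXA6 did pass from 8 h to 48 h, at 0.37, 0.35 and 0.48 (adjusted p 0.00067, 0.00013 and 3.4e-06). On log2(TPM + 1) values the 8 h to 48 h call for MYOF, that for ANXA3 and the 0 h to 8 h call for S100A10 were lost (adjusted p 0.027, 0.014 and 0.010), while ANXA6 passed from 8 h to 48 h (0.29, adjusted p = 0.0022). The growth of the DYSF difference from 24 h to 48 h (0.32, adjusted p = 0.043, limma voom) passed without replicate 2 of the untreated 24 h libraries (0.42, adjusted p = 0.0056).

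Levels also changed with time in untreated cells, where time in culture and time without serum cannot be told apart. From 0 h to 8 h, 4 of the 10 genes passed in untreated cells (25.9% of all genes) and 7 in the TGFβ arm (33.8%), and from 0 h to 48 h 9 passed in untreated cells (55.1%) and 10 in the TGFβ arm (57.9%). All 9 that passed in untreated cells fell: by 48 h ANXA8 was 2.57-fold lower than at 0 h, DYSF 2.43-fold, ANXA3 1.86-fold, S100A10 1.71-fold and ANXA2 1.51-fold (adjusted p at most 2.5e-10, limma voom). In treated cells DYSF, ANXA8, ANXA5 and ANXA6 rose over the same span and the other 6 fell, ANXA1 by 2.42-fold, MYOF by 2.15-fold and ANXA3 by 2.07-fold. With the 4 reference genes as the scale, S100A10 and S100A11 in treated cells had the other sign over this span (log2 0.29 and 0.38 in place of -0.26 and -0.17), while the directions of the other 8 stayed in both arms. On that scale the calls of ANXA2 in treated cells (-0.19) and of ANXA1 and ANXA5 in untreated cells (-0.06 and -0.08 in place of -0.26 and -0.27) were lost. Counted over all alternative scalings and tools, the untreated 48 h call changed in 4 settings for ANXA1, 2 for ANXA5 and 1 for ANXA6. In treated cells that of S100A11 changed in 1. From 0 h to 8 h in untreated cells the call changed in 3 settings for ANXA1 and for S100A11, and in 1 for DYSF and for ANXA8.

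The wider repair pathway was described from lists. Of 30 partners, among them caveolins, cavins, EHD proteins, calpains and vesicle fusion proteins, 14 passed the test over the later times, 9 higher and 5 lower (46.7%, beside 42.5% of all genes). Their median log2 difference was 0.06 against -0.02 for all genes. In these lists higher and lower go by the mean of the 3 differences, and a single time can have the other sign. PACSIN2, counted as higher, was at 0.23 at 8 h and -0.14 at 48 h. SYT7, the lysosomal calcium sensor, had the largest mean difference (1.13 ± 0.08, adjusted p = 5.7e-11, limma voom), with 0.775 TPM untreated and 1.95 TPM treated at 48 h. TGM2, the transglutaminase, followed (0.65 ± 0.03, adjusted p = 2e-13, limma voom). The TGM2 difference was 0.86 at 8 h and 0.95 at 24 h but 0.15 at 48 h, where it did not pass (adjusted p = 0.024, limma voom). Of 21 genes of the ESCRT machinery, which pinches off wounded membrane, 4 were higher and 5 lower (42.9%), and the 3 largest differences were alike in size, with CHMP2B at 0.27 ± 0.06, CHMP4B at 0.27 ± 0.03 and CHMP5 at -0.27 ± 0.04.

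Of the 4 other ferlin genes 2 could be tested, and FER1L4, which is thought to make no protein, was lower (-0.49 ± 0.11, adjusted p = 0.0012, limma voom) while FER1L5 was not called (-0.05 ± 0.18). FER1L4 had 0.604 TPM in untreated cells at 0 h and 4.16 TPM by 48 h, the level of DYSF there, and stood at 2.40 TPM in treated cells at 48 h. Of 7 other annexins 2 were higher, with ANXA8L1 first, and 2 lower, with ANXA9 at -0.43 ± 0.05 (57.1% passed, beside 42.5% of all genes). ANXA10, also counted as higher, was lower at 8 h (log2 -0.24, adjusted p = 0.0044, limma voom) and higher at 48 h (0.92, adjusted p = 3.6e-08). Of 18 other S100 genes 12 could be tested, and 33.3% of these passed, beside 42.5% of all genes. Of the 12, 1 was higher, S100A16 (0.57 ± 0.04), and 3 lower, with S100A4 at -0.55 ± 0.04 first. S100A4 stood at 1125 TPM untreated and 623 TPM treated at 48 h.

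The 3 genes whose 8 group means followed DYSF most closely, by Pearson's r of log2(TPM + 1) among 13822 genes, were CLSTN1 (0.996), SLITRK1 (0.993) and GAP43 (0.992). For ANXA8 they were TGFBI (0.991), ACP6 (0.991) and its copy ANXA8L1 (0.991). These are descriptions over 8 means that share arm, time and code, and r takes no account of size: CLSTN1 moved from 99.6 TPM untreated to 158 TPM treated at 48 h, and TGFBI from 212 to 1280 TPM.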

How the data were processed

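RNA-Seq of 24 SK-MES-1 libraries was analysed from 1 table of 173259 Ensembl release 79 transcripts (GRCh38) per library. The estimated counts deposited by the authors are kallisto 0.43.0 output (version from the submitters' processing notes), not normalised. TPM as deposited has a fixed total per library and keeps no depth. The effective lengths deposited by the authors served for length-scaled counts only. Transcripts were assigned to genes with GENCODE 44 by identifier without version (155518 matched, 89.8%; the other 17741 were left out). Each gene's estimated counts were added up and rounded to whole numbers, and a gene entered the tests when 3 or more libraries held 10 or more counts, which left 17453 genes.

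limma 3.58.1 (voom, TMM factors, 1 mean per group, R 4.3.3) gave differences between the arms at each time, an F-test over 8, 24 and 48 h and changes between times, with Benjamini-Hochberg adjustment over all genes and a threshold of 0.01. limma voom was chosen because the study names it. The scripts were tested on simulated data. edgeR 4.0.16, DESeq2 1.42.0, other scalings, filters, TPM scales, a replicate block and leaving out each library were alternatives. Ratios of TPM were tested by exact permutation within time. P-values measure the spread between these replicates of 1 cell line. Strand of the counting is not given in the sources used here.

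The members and lists were chosen with earlier results of these data known. Named were all 10 genes, in each list the genes with an F-test adjusted p under 0.01 and a mean change of at least 2-fold or else the 2 largest, transcripts of at least 10% of their gene, and the 3 genes most like DYSF and ANXA8. Libraries of a group differed by more than sampling noise, so none was counted as a duplicate. The window before the downstream start of DYSF is not reported here.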

Additional observations from a re-analysis of the deposited data

Results flagged for a closer look

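The difference between the arms was tested in limma voom for a change between times of treatment, from 24 h to 48 h, where 1 of the 10 genes passed beside 9.11% of all genes, and from 8 h to 48 h, where 4 passed beside 14% of all genes. The changes from 0 h to 8 h are given in the report. For ANXA3 it changed by -0.41 from 24 h to 48 h (standard error 0.09, adjusted p = 0.0024), from higher to lower in treated cells. From 8 h to 48 h the difference changed by 1.80 for DYSF (adjusted p = 6.7e-11), by 0.53 for ANXA8 (adjusted p = 0.00053), by 0.34 for ANXA5 (adjusted p = 0.002) and by -0.30 for MYOF (adjusted p = 0.00032). The 8 h and 48 h libraries carry different codes, whose part in these 4 changes was not tested.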

How the results depend on the processing

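Of 2436 member values under the alternatives, 2372 kept their direction and their side of the threshold, 15 lost a call, 20 gained one and 29 changed sign. DYSF, MYOF, ANXA1, ANXA8, S100A10 and S100A11 kept direction and call at 8, 24 and 48 h and over them under every alternative run, as did the 3 ratios. With the 4 genes to which the study scaled its qRT-PCR as the scale, the median of all genes moved to 0.08, 0.34 and 0.34 at 8, 24 and 48 h (with library totals to -0.10, -0.11 and -0.10). With the 4 genes ANXA2 was at 0.15 at 24 h, 0.23 at 48 h and 0.19 over the 3 times, ANXA3 at 0.22 at 48 h, and the changes from 8 h to 48 h were 0.032 for ANXA1, 0.039 for ANXA2 and 0.25 for ANXA3. The mean of ANXA3 over the 3 times, near 0, was -0.08 with library totals, -0.037 with upper-quartile factors, -0.006 with 10 counts in all libraries, -0.026 on log2(TPM + 1), -0.027 on log2(TPM + 0.1) and -0.002 with protein coding transcripts, and -0.011 to 0.019 without single libraries. On log2(TPM + 1) the change was 0.049 for ANXA6 from 24 h to 48 h and 0.04 for ANXA3 from 8 h to 48 h. Without single libraries the change from 24 h to 48 h ran from -0.079 to 0.070 for ANXA1 and from -0.062 to 0.033 for ANXA6, and that from 8 h to 48 h from -0.051 to 0.015 for ANXA3, none of them past the threshold in the reported analysis.

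The count of genes changed from 24 h to 48 h was 0 with the 4 reference genes and on log2(TPM + 1), 2 with the replicate block (DYSF at 0.33, adjusted p = 0.008, beside ANXA3), and 1 to 2 without single libraries, the 2 without untreated 24 h replicate 2. With the block 7, 10 and 8 genes passed at 8, 24 and 48 h, as without it, with a block within each time 8, 10 and 10, and with the libraries of 1 time alone 10, 8 and 9. The other settings, library totals among them with 6 at 8 h, gave 6 to 8, 9 to 10 and 8 to 9. Same-numbered libraries of the 2 arms correlated at -0.047 to 0.301 in their deviations, over 0.1 in 4 of 12 pairs. The values were 0.072 to 0.296 at 0 h and 0.089 to 0.301 at 24 h, but -0.047 to 0.092 at 8 and 48 h. The reported tests treated the libraries as unpaired, and whether the replicate numbers pair them is not known. The cause of these changes was not tested.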
